A study of Mus musculus with 8 samples.

Results

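The genes described here are 10 matrix metalloproteinases of the mouse: Mmp2, Mmp3, Mmp8, Mmp11, Mmp13, Mmp14, Mmp16, Mmp19, Mmp23 and Mmp25. They were taken from a list of names, found by Ensembl identifier among the 52636 genes of the deposited tables, and all 10 were present. Of these, 9 passed the filter on low values, a TPM (a transcript level scaled for transcript length and library size) above 1 in at least 1 library, as did 12538 protein-coding genes in all. Mmp16 did not pass.

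Articular cartilage from knee joints of Oscar-/- and WT mice was sequenced after destabilization of the medial meniscus (DMM), a surgical model of osteoarthritis, or after sham surgery. The 4 groups were Oscar-/- DMM, Oscar-/- sham, WT DMM and WT sham, each with 1 library at 4 weeks and 1 library at 2 weeks after surgery. All mice were males of the C57BL/6 strain, with a labelled age of 10 weeks, and no other allele or agent was named for these libraries. Every library combined 10 articular cartilages and stood alone for its condition, so that the spread between animals was not measured.

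Matrix metalloproteinases are zinc-dependent proteases that cut collagens, proteoglycans and other proteins of the extracellular matrix. They are made as inactive proenzymes and are held in check by the tissue inhibitors of metalloproteinases (TIMPs). In osteoarthritic cartilage the collagenase MMP13, which cuts type II collagen, is the best known member, while MMP8 was first described as the collagenase of neutrophils.

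Oscar was at 0 counts in all 4 Oscar-/- libraries, which allows up to 3 counts per library, and at 1.25 to 4.21 TPM in the WT libraries. Total expected counts were 13189181 to 18533609 per library, and the 4 hemoglobin genes took 26.5% to 37.7% of TPM. Of the chondrocyte genes, Col2a1 was at 59.5 TPM or more and Acan at 19.3 TPM or more, Matn1 was at 0.04 to 0.44 TPM, and the neutrophil gene S100a8 alone was at 21208 to 39989 TPM. The tissue labelled as articular cartilage thus carried abundant blood and marrow transcripts beside those of chondrocytes. In such bulk libraries, fewer cells of a type and less RNA per cell cannot be told apart. By the file names, the 4 libraries of 2 weeks shared sequencing lane 5, the WT libraries of 4 weeks lane 3 and the Oscar-/- libraries of 4 weeks lane 1. Every DMM library therefore shared a lane with its sham library, but week and lane cannot be told apart, nor genotype and lane at 4 weeks.

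Mmp13, Mmp3 and Mmp8 lie in 1 cluster of metalloproteinase genes on chromosome 9 and are known from different cell types, so the 250 bases before their start sites are shown. The sequences were taken from RefSeq on GRCm38.p6, where 7 of the 10 members had a promoter entry (Mmp3, Mmp8, Mmp11, Mmp13, Mmp14, Mmp23 and Mmp25). Capitals mark matches, on either strand, to the AP-1 motif TGANTCA, the RUNX motif AACCACA, the PU.1 motif GAGGAAG and the TATA box letters TATAAA. The windows are chr9:7272264-7272513 for Mmp13, chr9:7445572-7445821 for Mmp3 and chr9:7558179-7558428 for Mmp8, all on the plus strand and written 5′ to 3′.
Mmp13: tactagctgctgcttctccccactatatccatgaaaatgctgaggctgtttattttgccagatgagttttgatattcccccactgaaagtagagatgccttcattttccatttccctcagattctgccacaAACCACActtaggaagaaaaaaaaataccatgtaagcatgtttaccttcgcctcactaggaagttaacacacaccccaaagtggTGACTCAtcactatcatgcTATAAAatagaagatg
Mmp3: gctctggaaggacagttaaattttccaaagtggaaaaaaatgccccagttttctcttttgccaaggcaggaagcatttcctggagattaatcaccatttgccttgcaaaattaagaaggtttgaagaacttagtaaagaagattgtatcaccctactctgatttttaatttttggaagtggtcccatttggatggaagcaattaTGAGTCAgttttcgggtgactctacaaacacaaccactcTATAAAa
Mmp8: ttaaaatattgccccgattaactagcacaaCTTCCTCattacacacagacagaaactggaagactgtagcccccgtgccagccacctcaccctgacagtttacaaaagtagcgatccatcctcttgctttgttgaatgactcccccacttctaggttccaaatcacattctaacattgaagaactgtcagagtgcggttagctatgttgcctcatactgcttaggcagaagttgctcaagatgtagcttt
The Mmp13 window held AACCACA at -119 to -113, TGACTCA at -35 to -29 and TATAAA at -16 to -11, counted from the start site. The Mmp3 window held TGAGTCA at -46 to -40 and TATAAA at -7 to -2, and the Mmp8 window held the PU.1 letters on the opposite strand, CTTCCTC, at -220 to -214. Of the other members with an entry, Mmp25 held GAGGAAG at -13 to -7, and no match lay in the windows of Mmp11, Mmp14 and Mmp23. No matches overlapped each other. Over all 32851 promoter entries, 6.75% held the AP-1 letters in the same window, 4.40% the RUNX letters, 10.6% the PU.1 letters and 12.4% the TATA letters. These matches describe letters in the windows and were not tested against expression.

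In Oscar-/- cartilage none of the 9 tested members passed the threshold for DMM against sham, an adjusted p under 0.05 in edgeR's quasi-likelihood test with Benjamini-Hochberg adjustment over all genes tested, which 0.112% of all genes passed. In WT cartilage 5 of 9 did, all higher after DMM, namely Mmp2, Mmp3, Mmp13, Mmp14 and Mmp23, where 4.36% of all genes were higher. The difference between these responses passed the threshold for Mmp2, Mmp13 and Mmp14, each with the smaller response in Oscar-/-, where 3.83% of all genes passed in that direction. Mmp8 and Mmp25, both known from neutrophils, were among the members called in neither genotype. The values of each member follow by role, first per library in TPM and then as log2 fold changes of scaled counts with their standard errors.

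**Figure D1:**
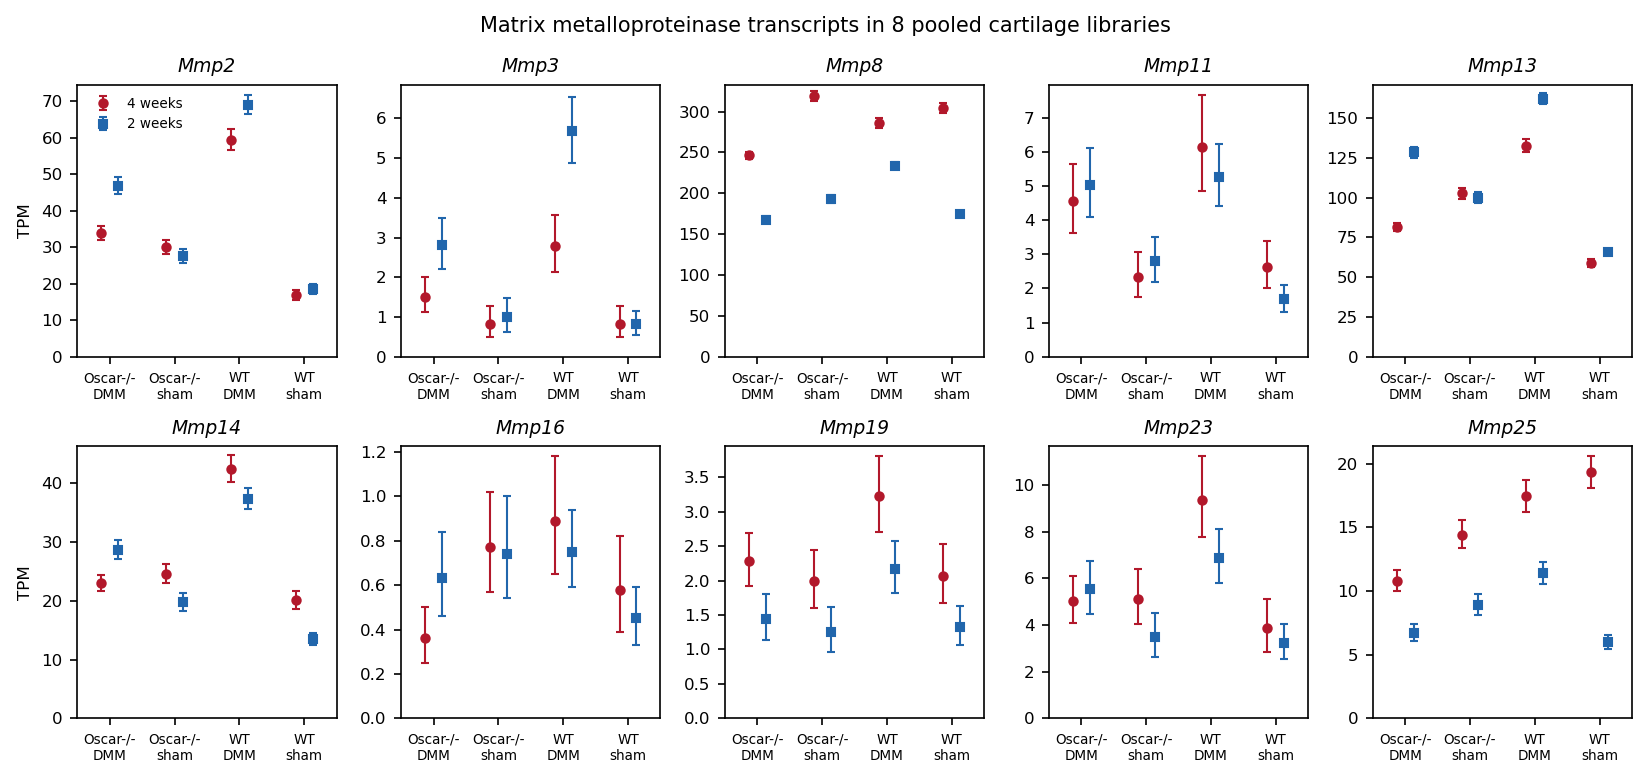
TPM of each of the 10 genes (vertical axes, linear from 0) in the 4 groups (horizontal axes), with circles for 4 weeks, squares for 2 weeks and bars for the exact Poisson 95% interval of the count, which covers counting error only. The WT DMM libraries were the highest 2 of 8 for Mmp2 (59.4 and 69.1 TPM) and Mmp14 (42.4 and 37.3 TPM), while Mmp8 was higher at 4 weeks (246 to 319 TPM) than at 2 weeks (168 to 234 TPM) in every group.

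Mmp2 encodes gelatinase A, a secreted enzyme that cuts denatured collagen and basement membrane (chromosome 8, 92827291 to 92853420, plus strand of GRCm38). Mmp2 was at 33.9 and 46.9 TPM in Oscar-/- DMM cartilage at 4 and 2 weeks and at 30.0 and 27.5 TPM in Oscar-/- sham cartilage. WT cartilage had 59.4 and 69.1 TPM after DMM and 16.9 and 18.5 TPM after sham surgery. Each genotype's DMM libraries lay above its sham libraries, but in Oscar-/- the counting intervals at 4 weeks overlapped (32.0 to 35.9 and 28.1 to 32.1 TPM). The log2 fold change after DMM was 0.43 (SE 0.10, adjusted p = 0.119) in Oscar-/- and 1.63 (SE 0.10, adjusted p = 6.61e-05) in WT. The 2 responses differed by -1.20 (SE 0.14, adjusted p = 0.00438), and without the WT DMM library of 4 weeks the adjusted p was 0.0536 at a similar difference of -1.18. Its sham level also differed between genotypes, 0.61 higher in Oscar-/- (SE 0.11, adjusted p = 0.0188).

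Mmp3 encodes stromelysin-1, which cuts proteoglycans and activates other proenzymes of the family (chromosome 9, 7445822 to 7455975, plus strand). It was at 1.51 and 2.81 TPM in Oscar-/- DMM cartilage at 4 and 2 weeks, against 0.83 and 0.99 TPM in Oscar-/- sham cartilage. In WT it was at 2.78 and 5.67 TPM after DMM, against 0.82 TPM at both weeks after sham surgery. All 4 DMM libraries lay above all 4 sham libraries, and the Oscar-/- and WT DMM libraries overlapped. Its counts were low, 20 to 186 per library. Mmp3 had the highest fold changes of the members, 1.31 in Oscar-/- (SE 0.28, adjusted p = 0.0901) and 2.14 in WT (SE 0.25, adjusted p = 0.00104). The difference of the responses was -0.82 (SE 0.39, adjusted p = 0.227) and did not pass. Without the WT DMM library of 2 weeks the WT change was 1.79 and its adjusted p 0.0538. In Oscar-/- the change passed without the WT sham library of 2 weeks (adjusted p = 0.0382) or that of 4 weeks (0.0443).

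Mmp11 encodes stromelysin-3, which is best known from stromal cells next to remodelling epithelia (chromosome 10, 75923222 to 75936496, minus strand). It was at 4.55 and 5.02 TPM in Oscar-/- DMM cartilage at 4 and 2 weeks, against 2.34 and 2.80 TPM in Oscar-/- sham cartilage. WT cartilage had 6.14 and 5.26 TPM after DMM, against 2.63 and 1.68 TPM after sham surgery. In TPM the DMM and sham libraries did not overlap in either genotype. On scaled counts the change was smaller, 0.32 in Oscar-/- (SE 0.19, adjusted p = 0.556) and 0.62 in WT (SE 0.19, adjusted p = 0.0849), and neither passed. The effective transcript length deposited for Mmp11, by which TPM divides the count, was 943 and 1138 bases in Oscar-/- DMM and 1521 and 1787 bases in Oscar-/- sham libraries. In WT it was 970 and 1281 bases after DMM and 1522 and 1895 bases after sham surgery. On log2(TPM + 1), limma called Mmp11 higher after DMM in WT (1.10, adjusted p = 0.00177). Mmp11 overlaps Chchd10 on the other strand, a gene at 50.4 to 78.6 TPM. The libraries were made with a stranded kit, but the strand setting of the counting is not given in the sources used here, so reads of the pair may not be separated.

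Mmp8 and Mmp13 are the collagenases of the list, able to cut fibrillar collagen. Mmp8 (chromosome 9, 7558456 to 7568485, plus strand) was the most abundant member in all 8 libraries and took 42.6% to 70.9% of the TPM summed over the 10 genes. It was at 246 and 168 TPM in Oscar-/- DMM cartilage at 4 and 2 weeks and at 319 and 193 TPM in Oscar-/- sham cartilage. In WT it was at 286 and 234 TPM after DMM and at 304 and 174 TPM after sham surgery. The weeks separated the libraries and the surgeries did not. Its log2 fold change after DMM was -0.19 in Oscar-/- (SE 0.12, adjusted p = 0.576) and -0.03 in WT (SE 0.12, adjusted p = 0.906).

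Mmp13 (chromosome 9, 7272514 to 7283331, plus strand) was at 81.3 and 128 TPM in Oscar-/- DMM cartilage at 4 and 2 weeks and at 103 and 99.9 TPM in Oscar-/- sham cartilage. WT cartilage had 133 and 162 TPM after DMM and 58.6 and 65.7 TPM after sham surgery. The Oscar-/- DMM libraries lay on either side of the Oscar-/- sham libraries, with 4 weeks below and 2 weeks above, while the WT groups were far apart. The change after DMM was 0.10 in Oscar-/- (SE 0.13, adjusted p = 0.798) and 1.03 in WT (SE 0.13, adjusted p = 0.00151). The responses differed by -0.92 (SE 0.18, adjusted p = 0.0249). That call was lost without the WT DMM library of 4 weeks (adjusted p = 0.107) or 2 weeks (0.109), or without the Oscar-/- DMM (0.0676) or sham library (0.0833) of 4 weeks. Mmp13 in sham cartilage was 0.61 higher in Oscar-/- (SE 0.13, adjusted p = 0.0435).

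Mmp14, Mmp16 and Mmp25 encode membrane-type enzymes, bound to the cell membrane. Mmp14 encodes MT1-MMP, which cuts fibrillar collagen at the cell surface and, with TIMP2, activates pro-MMP2 (chromosome 14, 54431612 to 54445364, plus strand). It was at 23.0 and 28.7 TPM in Oscar-/- DMM cartilage at 4 and 2 weeks and at 24.6 and 19.7 TPM in Oscar-/- sham cartilage. In WT it was at 42.4 and 37.3 TPM after DMM and at 20.1 and 13.5 TPM after sham surgery. The Oscar-/- groups overlapped and the WT groups did not. The change after DMM was 0.32 in Oscar-/- (SE 0.12, adjusted p = 0.351) and 1.04 in WT (SE 0.12, adjusted p = 0.00104), and the responses differed by -0.72 (SE 0.17, adjusted p = 0.0403). This call was kept without the Oscar-/- DMM library of 2 weeks or the WT sham library of 4 weeks. Leaving out any of the other 6 libraries ended it, at adjusted p between 0.0738 and 0.168.

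Mmp16 encodes MT3-MMP (chromosome 4, 17852893 to 18119145, plus strand) and was at 0.36 and 0.63 TPM in Oscar-/- DMM cartilage at 4 and 2 weeks and at 0.77 and 0.74 TPM in Oscar-/- sham cartilage. WT cartilage had 0.89 and 0.75 TPM after DMM and 0.58 and 0.45 TPM after sham surgery. The directions were opposite in the 2 genotypes at both weeks, on 31 to 72 counts per library, and the counting intervals of all 7 pairs of neighbours in its order of levels overlapped. When all genes with a count were tested, the responses differed by -0.90 (SE 0.37, adjusted p = 0.144).

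Mmp25 encodes MT6-MMP, a GPI-anchored enzyme known from leukocytes (chromosome 17, 23628311 to 23645277, minus strand). It was at 10.8 and 6.73 TPM in Oscar-/- DMM cartilage at 4 and 2 weeks and at 14.4 and 8.91 TPM in Oscar-/- sham cartilage. In WT it was at 17.5 and 11.4 TPM after DMM and at 19.4 and 5.99 TPM after sham surgery. In Oscar-/- both DMM libraries were below the sham library of their week, and in WT the weeks went opposite ways. The change after DMM was -0.31 in Oscar-/- (SE 0.16, adjusted p = 0.482) and 0.16 in WT (SE 0.15, adjusted p = 0.583), and the WT change passed without the WT sham library of 4 weeks (0.51, adjusted p = 0.0164). The difference of the responses, -0.47 (SE 0.22, adjusted p = 0.218), passed only without the WT sham library of 4 weeks (-0.82, adjusted p = 0.00794).

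Mmp19 (chromosome 10, 128790910 to 128800824, plus strand) and Mmp23 (chromosome 4, 155650655 to 155653384, minus strand) encode further metalloproteinases, MMP-23 being anchored in the membrane too. Mmp19 was at 2.28 and 1.44 TPM in Oscar-/- DMM cartilage at 4 and 2 weeks and at 1.99 and 1.26 TPM in Oscar-/- sham cartilage. WT cartilage had 3.22 and 2.17 TPM after DMM and 2.07 and 1.33 TPM after sham surgery. Each DMM library lay above the sham library of its genotype and week, but neither response passed (0.26, SE 0.17, adjusted p = 0.612 in Oscar-/- and 0.50, SE 0.16, adjusted p = 0.115 in WT). It overlaps Tmem198b (1.86 to 4.42 TPM) on the other strand, with the same limit as for Mmp11.

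Mmp23 was at 5.02 and 5.52 TPM in Oscar-/- DMM cartilage at 4 and 2 weeks and at 5.11 and 3.47 TPM in Oscar-/- sham cartilage. In WT it was at 9.37 and 6.88 TPM after DMM and at 3.86 and 3.23 TPM after sham surgery. The Oscar-/- groups overlapped and the WT groups did not. The change after DMM was 0.34 in Oscar-/- (SE 0.20, adjusted p = 0.556) and 1.01 in WT (SE 0.20, adjusted p = 0.0144), and the WT call was lost without either WT DMM library (highest adjusted p = 0.157). The responses differed by -0.67 (SE 0.29, adjusted p = 0.182), which did not pass.

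**Figure D2:**
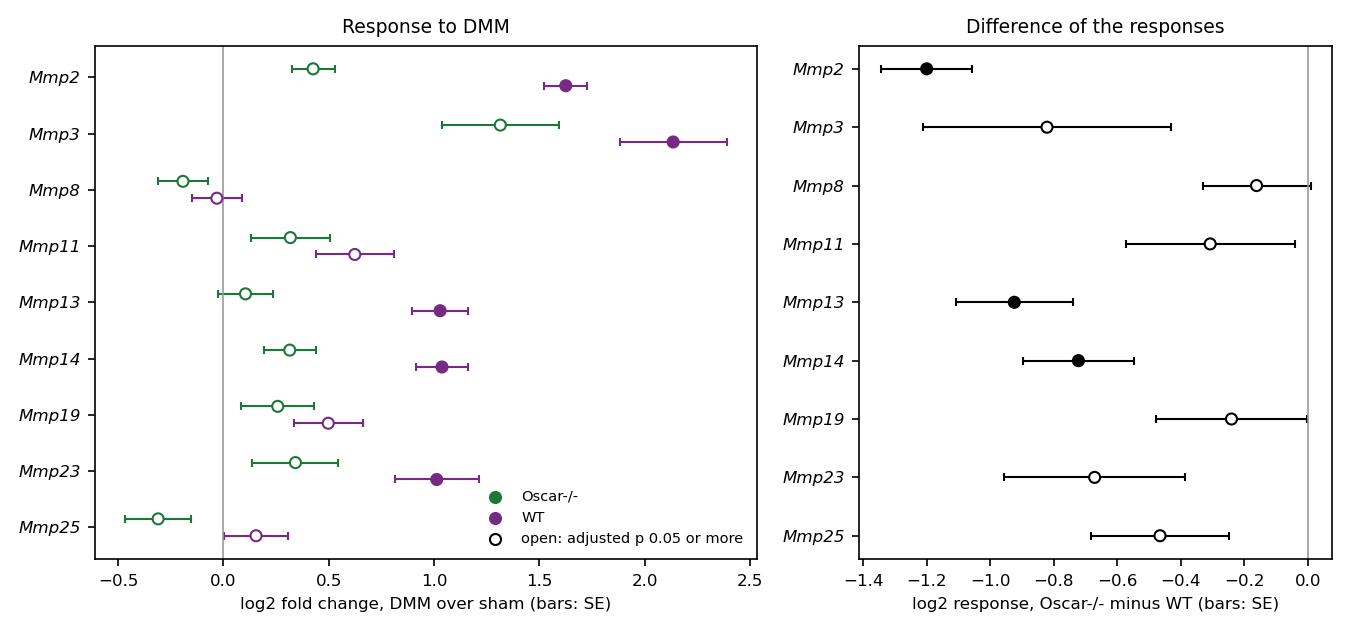
Log2 fold change of DMM over sham (left, Oscar-/- above WT for each gene) and the Oscar-/- response minus the WT response (right) for the 9 tested genes, with bars for the standard error and filled points for an adjusted p under 0.05. No Oscar-/- point on the left is filled, 5 WT points are, and all 9 differences on the right lie below 0, with Mmp2 (-1.20), Mmp13 (-0.92) and Mmp14 (-0.72) filled.

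Read over the members, DMM against sham in Oscar-/- gave 0 calls of 9. At an unadjusted p under 0.05 there were 3 members (Mmp2, Mmp3 and Mmp14) of 9 and 1459 genes of 12538, and DESeq2 and limma also called 0 members. Without the Oscar-/- DMM library of 4 weeks, Mmp2 (0.58, adjusted p = 0.0312) and Mmp14 (0.55, adjusted p = 0.0482) passed in Oscar-/-, and with no filter on TPM, when 2.02% of genes passed, Mmp2 and Mmp3 did. The median log2 fold change was 0.32 over the members and 0.01 over all genes. For DMM against sham in WT the medians were 1.01 over the members and -0.01 over all genes. On scaled counts, DMM exceeded sham in all 4 pairs of libraries for 6 of 9 members (Mmp2, Mmp3, Mmp11, Mmp14, Mmp19 and Mmp23), where 6.21% of all genes did so. In TPM it did so in only 3 pairs for Mmp14 and Mmp23, and 5.56% of all genes did in all 4. Both WT DMM libraries lay above the other 6 on scaled counts for Mmp2, Mmp14 and Mmp23, where 3.68% of all genes showed this, and in TPM also for Mmp11 and Mmp13, where 7.42% did. In the difference of the responses all 9 members were below 0, with a median of -0.67, and the median over all genes was -0.01. With 1 library left out, 0 to 4 members were called in this difference. The 0 arose without the WT DMM library of 4 weeks, when 0.12% of all genes passed in either direction, against 5.24% with it. The 4 arose without the WT sham library of 4 weeks, when 15.8% passed.

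Genotypes were also compared after the same surgery. After DMM, 0 of 9 members differed between Oscar-/- and WT, where 0.0479% of all genes did. The unadjusted p was under 0.05 for 5 members and for 1589 of 12538 genes. DESeq2 and limma called 0 members, but DESeq2 gave an adjusted p to 870 genes only, of which 6.21% passed. All 9 changes were below 0, with a median of -0.37. Over all genes the median was -0.005, and 48.9% of changes were above 0. With no filter on TPM, when 1.07% of genes passed, Mmp2, Mmp3, Mmp14 and Mmp25 were called lower in Oscar-/-. Mmp2 also passed, together with Mmp25, without the WT sham library of 2 weeks or of 4 weeks, and together with Mmp14 without the Oscar-/- DMM library of 2 weeks. After sham surgery 2 of 9 members were higher in Oscar-/- (Mmp2 and Mmp13), where 1.99% of all genes were. Each of these calls was lost without any 1 of 5 libraries, with adjusted p up to 0.171 for Mmp2 and 0.333 for Mmp13. The comparisons share libraries: a sham value enters both the sham contrast and the response to DMM. For Mmp13 the Oscar-/- to WT ratio was 1.52 after sham surgery and 0.80 after DMM, and for Mmp2 it was 1.52 and 0.66.

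With time, 6 of 9 members changed. Higher at 4 weeks than at 2 weeks were Mmp25 (0.62, SE 0.11, adjusted p = 0.00369) and Mmp8 (0.30, SE 0.09, adjusted p = 0.0305), where 11.2% of all genes were higher. Lower at 4 weeks were Mmp3 (-0.96, SE 0.18, adjusted p = 0.00545), Mmp13 (-0.57, SE 0.09, adjusted p = 0.00253), Mmp11 (-0.50, SE 0.13, adjusted p = 0.0219) and Mmp2 (-0.41, SE 0.07, adjusted p = 0.0035), where 10.9% of all genes were lower. The members called higher at 4 weeks were thus those known from neutrophils, but Mmp19 rose by a similar 0.33 (SE 0.12, adjusted p = 0.0705) without passing. Of 14 neutrophil marker genes, 3 were called higher at 4 weeks and 0 lower, and 10 had a change above 0, where 46.2% of all genes did. Of 18 stromal marker genes, 14 were called lower at 4 weeks and 1 higher, and all 10 B lineage marker genes were called lower. Leaving out single libraries ended the call for Mmp8 (4 libraries), Mmp11 (6 libraries) and Mmp3 (2 libraries) and for none of the other 3 members. DESeq2 called 5 of the 6 members, without Mmp11 (-0.50, adjusted p = 0.132). On log2(TPM + 1), limma did not call Mmp2 (-0.17, adjusted p = 0.239), Mmp13 (-0.27, adjusted p = 0.0534) or Mmp11 (0.08, adjusted p = 0.654), and it called Mmp19. Week and lane cannot be told apart in this comparison.

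Within each week the responses were also expressed as DIF, the log2(DMM/sham) of TPM in Oscar-/- minus that in WT, from single libraries and so with no test. All 10 members had a DIF below 0 at both weeks. DIF was below 0 for 75.0% of all genes at 4 weeks and 82.6% at 2 weeks, with medians of -0.22 and -0.41, whereas on TMM-scaled counts these medians were -0.02 and -0.01. Member values were therefore read on both scales. In TPM, the DIF of Mmp13 was -1.51 for the 4-week libraries and -0.94 for those of 2 weeks, against -1.31 and -0.53 on scaled counts. Mmp14 had -1.18 and -0.93 in TPM, and -0.98 and -0.47 on scaled counts. For Mmp23 the DIF was -1.31 and -0.42 in TPM (counting SE 0.33 and 0.32), and -1.20 and -0.17 on scaled counts, with the larger size at 4 weeks. For Mmp25 the larger size was at 2 weeks, with -0.27 and -1.33 in TPM, and -0.07 and -0.92 on scaled counts. Mmp8 moved with the scale, as its -0.29 and -0.63 in TPM became -0.09 and -0.22 on scaled counts. Mmp3 had -0.90 and -1.28 in TPM, with counting SE of 0.53 and 0.44, and -0.69 and -0.87 on scaled counts.

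The study selected genes that were higher after DMM in WT, lower after DMM in Oscar-/-, and below the lower quartile of DIF. Among the 9 members that passed the filter, Mmp13, Mmp14 and Mmp23 met these criteria at 4 weeks, where 21.6% of all genes did. At 2 weeks Mmp25 alone met them, where 20.6% of all genes did, and none of the 9 met them at both weeks, where 10.1% of genes did. Mmp16, which did not pass the filter, met them at both weeks, with a DIF of -1.72 at 4 weeks (counting SE 0.46) and -0.97 at 2 weeks (counting SE 0.41). On TMM-scaled counts the Oscar-/- change at 4 weeks was above 0 for Mmp14 (0.02) and Mmp23 (0.12), which then did not meet the criteria, and it was -0.19 for Mmp13. Mmp2 and Mmp3 did not meet them because both were also higher after DMM in Oscar-/-, by 0.18 and 0.77 for Mmp2 and by 0.86 and 1.51 for Mmp3 on the log2 scale of TPM at 4 and 2 weeks.

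Whether each gene followed stromal or marrow genes was read from its Pearson r, over the 8 libraries, with scores of marker lists. A score is the mean of the log2 CPM (counts scaled to library size with TMM factors) of the list's genes, centred per gene. The stromal list held 18 collagen, matrix and mesenchymal genes such as Col1a1, Dcn and Pdgfra, and the marrow score averaged neutrophil, erythroid and B lineage scores. A gene was said to follow a score where r was at least 0.7 and above its r with the other score. By this rule Mmp2, Mmp3, Mmp11, Mmp13, Mmp14, Mmp16 and Mmp23 followed stromal genes, 7 of 10, where 9.91% of all genes tested did. That share covers only genes that passed the filter, which Mmp16 did not. No member followed the marrow score, where 13.4% of all genes did, and Mmp8, Mmp19 and Mmp25 followed neither. The marrow score itself had r = 0.758 with its erythroid part and 0.767 with its B lineage part, but -0.166 with its neutrophil part. On this scale the marrow rule can thus hardly pick out a gene that moves with neutrophil genes, and nothing about such genes is concluded from it.

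Mmp13 (r = 0.979, Spearman rho = 0.976, exact permutation p = 7.44e-05, adjusted over 120 relations 0.00397, n = 8) and Mmp2 (r = 0.951, rho = 0.952, exact permutation p = 0.000347, adjusted 0.00953, n = 8) had the highest r with the stromal score. The rho of each had an adjusted permutation p of 0.0228. Without the 2 libraries farthest from the median score, WT DMM of 2 weeks and WT sham of 4 weeks, r was 0.949 for Mmp13 and 0.872 for Mmp2. The r of Mmp11 was 0.893, of Mmp14 0.864, of Mmp3 0.853, of Mmp23 0.853 and of Mmp16 0.763. Their adjusted permutation p-values lay between 0.0506 and 0.102, so that none of these 5 passed 0.05 (n = 8). Without the same 2 libraries their r was 0.838, 0.769, 0.714, 0.604 and 0.456 in that order. The relations of Mmp23 and Mmp16, below 0.7 without them, thus rested on those libraries. On log2(TPM + 1) the r of Mmp16 with the stromal score was 0.681, also under the limit.

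The points share the libraries, the scaling and the design, since the stromal score itself was higher after DMM in WT. Of the 18 stromal genes, 16 passed as higher after DMM in WT and 14 as lower in the difference of the responses, with medians of 1.13 and -1.10. Beside these, the estimates were smaller in size than the list's median for Mmp13 (1.03, SE 0.13, and -0.92, SE 0.18) and Mmp14 (1.04, SE 0.12, and -0.72, SE 0.17). They were larger for Mmp2 (1.63, SE 0.10, and -1.20, SE 0.14). The gaps to the medians were not tested, so no order is read from them. The summed TPM of the stromal list was 2077 to 3252 in Oscar-/- DMM, 2614 to 4273 in Oscar-/- sham, 3772 to 4165 in WT DMM and 1728 to 2209 in WT sham libraries. Such sums weigh abundant genes most. Sparc alone was at 2361 TPM in the Oscar-/- sham library of 2 weeks, which had the highest sum. By the stromal score that library (0.23) lay below the WT DMM libraries of 2 weeks (0.74) and 4 weeks (0.29). The part of the shifts of the stromal genes in the values of the metalloproteinases was not tested. When genes and scores were centred within lanes, r with the stromal score was 0.98 for both Mmp2 and Mmp13, 0.96 for Mmp14, 0.91 for Mmp23, 0.88 for Mmp11 and 0.83 for Mmp3, and Mmp16 fell below the limit at 0.65. A single lane held at most 4 libraries, too few for an r of its own.

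**Figure D3:**
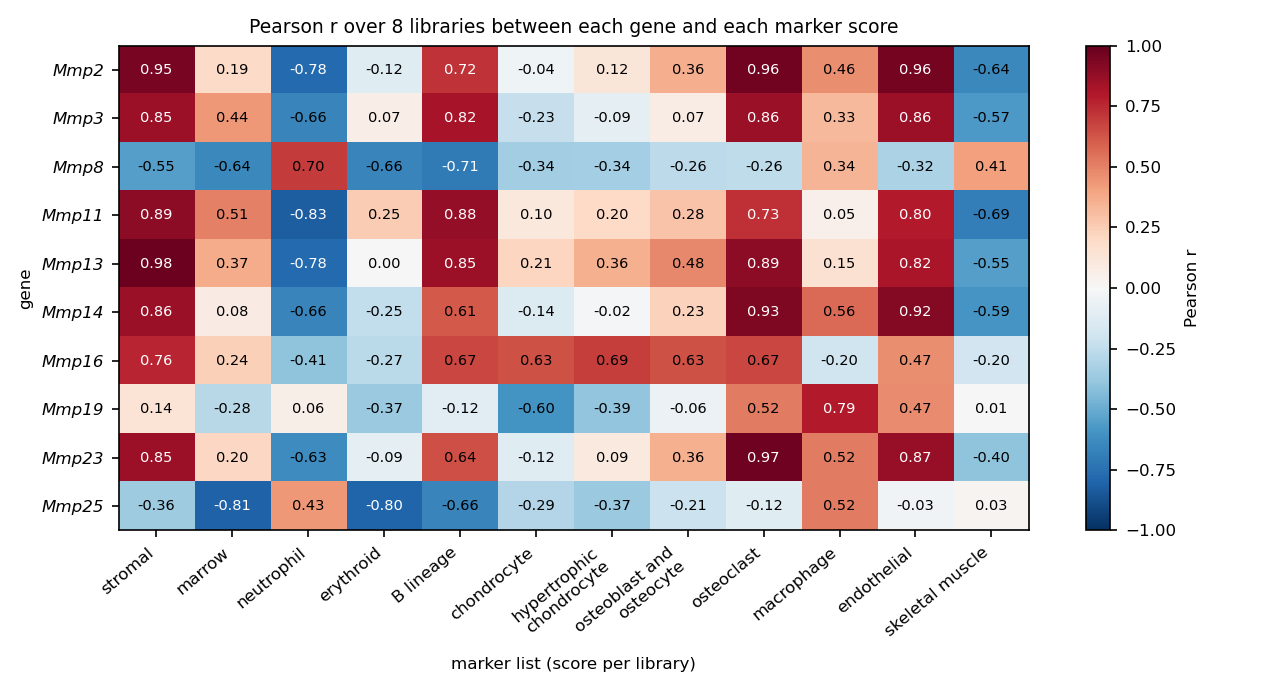
Pearson r over the 8 libraries between each of the 10 genes (rows) and the score of each of 12 marker lists (columns), with red for positive and blue for negative values. The stromal column runs to 0.98 for Mmp13, and the osteoclast and endothelial columns are similar for most of the same genes. Mmp8 has its highest r with the neutrophil score (0.70), while Mmp19 has its highest with the macrophage score (0.79).

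The stromal score could not be separated from some other scores in these libraries, as its r was 0.904 with the osteoclast score, 0.889 with the endothelial score and 0.809 with the B lineage score. Of the 7 genes, 4 had a higher r with the osteoclast genes than with the stromal genes, Mmp2 (0.964), Mmp3 (0.861), Mmp14 (r = 0.930, rho = 1) and Mmp23 (r = 0.970, rho = 0.952). The differences of these r were not tested. For Mmp14 and Mmp23 the exact permutation p-values for r were 2.48e-05, the smallest the permutations can give, and 0.000397 (adjusted 0.00298 and 0.00953, n = 8). Without 2 libraries these r were 0.952 and 0.945. The same 4 genes also had a higher r with the endothelial score than with the stromal score, 0.958 for Mmp2, 0.857 for Mmp3, 0.916 for Mmp14 and 0.871 for Mmp23. These differences were not tested either, so the pattern is not particular to the osteoclast genes. None of the 7 genes with stromal r of at least 0.7 had an r above that limit with the chondrocyte score (-0.23 to 0.63), although cartilage is the labelled tissue. The summed TPM of the osteoclast list was 656 to 680 in Oscar-/- DMM, 574 to 740 in Oscar-/- sham, 942 to 1060 in WT DMM and 493 to 555 in WT sham libraries.

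Mmp8 had an r of 0.698 with the neutrophil score (rho = 0.690, exact permutation p = 0.0531, adjusted 0.199, n = 8), just under the limit, and of -0.644 with the whole marrow score. Without the WT sham libraries of both weeks, the farthest from the median, r with the neutrophil score was 0.982. Both WT sham libraries stood off that line. The WT sham library of 2 weeks had a high neutrophil score (0.21) but 9.20 log2 CPM of Mmp8. That of 4 weeks had the highest neutrophil score (0.24) but 9.44 log2 CPM, below the Oscar-/- sham library of 4 weeks (score 0.12, 9.57 log2 CPM). The WT sham library of 2 weeks also had the highest skeletal muscle score of the 8 libraries (1.57). Over the 14 single neutrophil genes, r with Mmp8 ran between -0.09 for Mpo and 0.894 for Cxcr2. On the TPM scale r of Mmp8 with the neutrophil score was 0.91.

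Mmp25 had an r of 0.435 with the neutrophil score (0.823 without the same 2 libraries) and of -0.807 with the marrow score. When centred within lanes, r with the neutrophil score was 0.073 for Mmp25, where it was 0.703 for Mmp8. The highest r of Mmp25 was with the macrophage score (0.519). Over the same 14 genes the r of Mmp25 ran between -0.18 for Ctsg and 0.938 for Csf3r. On the TPM scale it counted as following marrow genes (r = 0.782), as did Mmp19 (r = 0.777), so that the call for both genes depends on the scale. Mmp19 had its highest r with the macrophage score (0.793, rho = 0.857, exact permutation p = 0.0191, adjusted 0.102, n = 8).

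**Figure D4:**
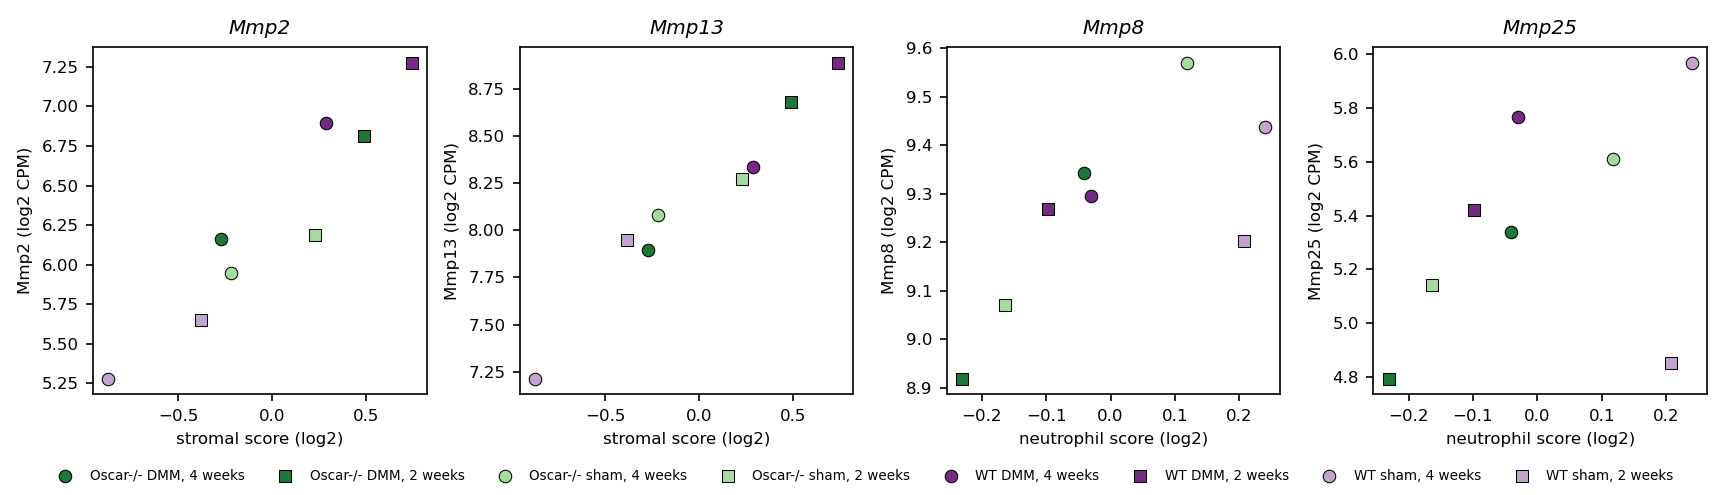
Log2 CPM of Mmp2 and Mmp13 against the stromal score and of Mmp8 and Mmp25 against the neutrophil score, with 1 point per library, dark for DMM, light for sham, circles for 4 weeks and squares for 2 weeks. Mmp13 rises along the stromal score over all libraries (r = 0.979), while in the panels of Mmp8 and Mmp25 the WT sham library of 2 weeks lies below the trend of the others. In the Mmp8 panel the WT sham library of 4 weeks, with the highest neutrophil score, lies below the Oscar-/- sham library of 4 weeks.

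Among themselves, 6 members (Mmp2, Mmp3, Mmp11, Mmp13, Mmp14 and Mmp23) had pairwise r of 0.692 to 0.967 over the 8 libraries. The r was 0.967 between Mmp2 and Mmp14, 0.946 between Mmp2 and Mmp23 and 0.919 between Mmp2 and Mmp13. Mmp8 and Mmp25 had r = 0.775 with each other, and -0.402 and -0.172 with Mmp2. The 3 tested genes most alike in pattern, by Pearson r over the 8 libraries, were Loxl1 (0.989), Cdh2 and Grb10 for Mmp13 and Fam167a (0.997), Fndc1 and Sgcb for Mmp2. For Mmp3 they were Lrrc17 (0.989), Matn2 and Rasgrp3, for Mmp11 P4ha3 (0.974), Dcakd and Mdk, and for Mmp14 Megf6 (0.983), Sox17 and Sgcb. For Mmp8 they were Bmx (0.986), Il18rap and Slc35a5, and for Mmp25 Mast3 (0.984), Plcb2 and Phf21a. For Mmp19 they were Apoe (0.936), Trem2 and Tha1, and for Mmp23 Aspg (0.987), Ptn and Dcstamp. Loxl1 is a lysyl oxidase that cross-links elastin and collagen, Trem2 and Apoe are known from macrophages, and Dcstamp is needed for osteoclast fusion. The highest r of 12538 genes is high by selection, so these are descriptions.

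Of 13 other metalloproteinase genes, Mmp9 and Mmp28 passed the filter. Mmp9, gelatinase B of neutrophils and osteoclasts, was at 257 to 494 TPM. This range overlaps that of Mmp8, but within each library Mmp9 was above Mmp8. Mmp9 had an r of 0.930 with Mmp25 and 0.760 with Mmp8. Its r was 0.382 with the neutrophil score and 0.118 with the osteoclast score. Neither Mmp9 (difference of the responses -0.31, SE 0.16, adjusted p = 0.263) nor Mmp28 passed in the responses to DMM. In the chromosome 9 cluster, which runs over 10 genes from 7272514 to 7699585, Mmp13, Mmp3 and Mmp8 exceeded 1 TPM, Mmp12 and Mmp27 reached 0.40 and 0.73 TPM, and Mmp1a, Mmp1b, Mmp7 and Mmp20 were at 0 counts in every library (up to 3 counts allowed per library).

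Of 13 genes for activation and inhibition of these enzymes, 4 were higher after DMM in WT (Timp1, Timp2, Pcsk5 and Lrp1), and 4 were lower in the difference of the responses (Timp2, Pcsk5, Pcsk6 and Lrp1). The list's median difference was -0.52. Timp2, the inhibitor that also takes part in pro-MMP2 activation, was at 50.2 and 44.5 TPM in Oscar-/- DMM cartilage at 4 and 2 weeks and at 58.8 and 61.6 TPM in Oscar-/- sham cartilage. WT cartilage had 73.9 and 59.2 TPM after DMM and 57.0 and 38.6 TPM after sham surgery. Its responses differed by -0.83 (SE 0.13, adjusted p = 0.0108). Timp1, the inducible inhibitor, was 0.93 higher after DMM in WT (SE 0.12, adjusted p = 0.00192) and 0.41 in Oscar-/- (adjusted p = 0.233), and the responses did not differ beyond the threshold (-0.52, adjusted p = 0.109). Pcsk5 and Pcsk6, proprotein convertases of the furin family, had differences of -1.38 (adjusted p = 0.0358) and -0.93 (adjusted p = 0.0208). Pcsk6 alone of the list passed for DMM against sham in Oscar-/- (-0.87, adjusted p = 0.0365, lower).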

How the data were processed

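Samples were grouped by genotype, surgery and week from their labels. Per the paper's methods and the submitters' processing notes (FastQC 0.11.8, STAR 2.6.0a, RSEM 1.2.17), the authors aligned reads to GRCm38, while the notes name a human build and all identifiers are mouse. The authors deposited RSEM expected counts, estimates that need not be whole, which were rounded for tests. The TPM values the authors deposited share 1 total per library, so abundant genes shift all others. Symbols and coordinates came from GENCODE M21 on GRCm38 (52403 of 52636 identifiers matched without version).

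Counts of 12538 protein-coding genes above 1 TPM in at least 1 of the 8 libraries were fitted in edgeR 4.0.16 (quasi-likelihood test, TMM scaling) with terms for the 4 groups of genotype and surgery and for week, which left 3 residual degrees of freedom. No condition has a second library, so p-values measure the spread left after the week term, which may be technical. The threshold was an adjusted p under 0.05. DESeq2 1.42.0 and limma 3.58.1 on log2(TPM + 1), other scalings and filters, and leaving out each library were the alternatives, run in R 4.3.3 and in Python 3.11.15 (matplotlib 3.10.9, scipy 1.17.1, numpy 2.4.6, pandas 2.3.3). The fits were tested on simulated data.

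Log2 CPM used a prior count of 2. Permutation tests of r and rho were exact and two-sided, with Benjamini-Hochberg adjustment over 120 relations. Intervals of single values are exact Poisson and cover counting error only. All members were named, with the 3 most alike genes of each and, of the pathway lists, Mmp9 and genes called in the difference of the responses or after DMM in WT. Mmp28, the genes of the chromosome 9 cluster and single neutrophil genes were added after their values were seen. The members and lists were chosen with earlier results of these data known. Lane-centred relations were also chosen after the data were seen.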

Additional observations from a re-analysis of the deposited data

Results flagged for a closer look

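The response to DMM differed between Oscar-/- and WT by the test of the difference for Mmp2 (-1.20 on the log2 scale), Mmp13 (-0.92) and Mmp14 (-0.72). Mmp16 went opposite ways, lower after DMM in Oscar-/- and higher in WT at both weeks in TPM, with a mean DIF of -1.34. That difference was tested only without the filter on TPM (-0.90, adjusted p = 0.144 by edgeR), because the gene was below 1 TPM in every library.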

How the results depend on the processing

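The 3 members called in the difference of the responses were also called with DESeq2 size factors, TMM without hemoglobin genes, no filter, a TPM above 1 in every library, DESeq2 and limma. Leaving out single libraries, with 2 residual degrees of freedom, gave 0 to 4 members for that difference, 0 to 2 for DMM against sham in Oscar-/-, 3 to 6 for DMM against sham in WT, 0 to 2 for Oscar-/- against WT after DMM, 0 to 2 after sham surgery and 4 to 6 for 4 against 2 weeks. In each of these comparisons, the share of all genes that passed also moved with the library left out. The ranges are therefore not read as particular to the members. With no filter 2 members (Mmp2 and Mmp3) passed for DMM against sham in Oscar-/- and 4 for Oscar-/- against WT after DMM. The cause of the higher numbers with no filter was not tested. On log2(TPM + 1) 6 members followed stromal genes, Mmp16 no longer among them, and 2 members followed marrow genes. The number that followed stromal genes was 6 to 7 without single libraries.

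Signs turned in some changes, of which that of Mmp11 at 4 against 2 weeks was called in edgeR (-0.50). With limma they were 0.17 for Mmp8 after DMM in WT, and 0.081 for Mmp11, 0.18 for Mmp14 and 0.23 for Mmp23 at 4 against 2 weeks. Without single libraries the range was -0.24 to 0.13 for Mmp8 and -0.15 to 0.51 for Mmp25 after DMM in WT, -0.329 to 0.043 for Mmp8 in the difference of the responses, and -0.14 to 0.35 for Mmp13 after DMM in Oscar-/-. When a library was exchanged for its counterpart of the other week, DIF for Mmp8 became 0.17 (WT sham, 2 weeks), 0.007 (WT DMM, 4 weeks) and 0.44 (Oscar-/- sham, 4 weeks), and for Mmp25 0.36, 0.35 and 0.43 for the same libraries. The low counts of Mmp3 and Mmp16 limit their precision.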
